A study of Mus musculus with 44 samples.

Results

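Levels of 10 piRNA pathway genes were read in germ cells of adult mouse testes: Piwil1, Piwil2, Tdrd1, Tdrd5, Tdrd6, Tdrd7, Tdrd9, Ddx4, Mael and Rnf17. All probes that the array annotation gives to these genes were taken, 17 of 45281, on 44 Illumina arrays of 8 groups. Of the 17 probes, 12 were above background (detection p under 0.05) on at least 5 arrays and entered the tests, and 5 did not. The 12 probes read 9 of the 10 genes. The only probe of Mael, whose protein acts in transposon silencing and in the processing of piRNA precursors, was above background on 1 of 44 arrays, so Mael was not measured. In experiment 1 the arrays came from spermatocytes (meiotic cells) and round spermatids (postmeiotic cells) of wild-type and Th2b+/tag adults, with 6 arrays in each group. TH2B is an H2B histone made in male germ cells, and the tagged mice carry it with His, Flag and HA tags fused to its C terminus. In experiment 2 the same cell types came from wild-type adults and from adults labelled kd, in which TH2B is said not to be made, with 5 arrays in each group. The labels call the arrays biological replicates, their genotype field names another gene (brdt), and strain, exact age and the way the cells were purified are not given in the sources used here.

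PIWI-interacting RNAs are small RNAs of the germ line that guide PIWI proteins to transposon and messenger RNAs. In pachytene spermatocytes they are cut in large numbers from long precursors, on and near the mitochondrial surface, and in round spermatids PIWI and Tudor proteins gather in the chromatoid body, a large cytoplasmic RNA granule. Tudor proteins bind methylated arginines of PIWI proteins, and in the mouse the transcription factor A-MYB drives many pachytene precursors together with several genes of the pathway.

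The sequences upstream of 4 members are shown because 3 of them (Piwil1, Tdrd5, Tdrd9) were several-fold lower in spermatids and 1 (Ddx4) differed little. They are the 250 bases before the RefSeq transcription start in GRCm38.p6: chr5:128735996-128736245 on the + strand for Piwil1, chr1:156303349-156303598 on the - strand for Tdrd5, chr12:111971309-111971558 on the + strand for Tdrd9 and chr13:112652311-112652560 on the - strand for Ddx4. They are written 5′ to 3′ on the gene's strand, and capitals mark the MYB core motif AACNG on either strand.
Piwil1: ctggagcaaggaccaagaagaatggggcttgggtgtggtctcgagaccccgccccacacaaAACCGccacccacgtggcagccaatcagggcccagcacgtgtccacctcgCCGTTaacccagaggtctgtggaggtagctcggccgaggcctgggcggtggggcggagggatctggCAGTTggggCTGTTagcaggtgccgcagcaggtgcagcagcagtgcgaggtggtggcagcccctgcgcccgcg
Tdrd5: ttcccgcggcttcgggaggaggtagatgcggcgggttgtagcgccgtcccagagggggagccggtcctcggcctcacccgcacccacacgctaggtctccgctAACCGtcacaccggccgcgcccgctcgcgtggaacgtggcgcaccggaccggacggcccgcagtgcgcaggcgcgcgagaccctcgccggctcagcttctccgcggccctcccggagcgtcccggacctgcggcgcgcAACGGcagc
Tdrd9: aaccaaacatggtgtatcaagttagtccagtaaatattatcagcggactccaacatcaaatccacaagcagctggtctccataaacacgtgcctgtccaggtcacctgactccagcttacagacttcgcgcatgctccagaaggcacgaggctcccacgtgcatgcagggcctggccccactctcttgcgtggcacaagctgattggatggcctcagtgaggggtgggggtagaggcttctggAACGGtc
Ddx4: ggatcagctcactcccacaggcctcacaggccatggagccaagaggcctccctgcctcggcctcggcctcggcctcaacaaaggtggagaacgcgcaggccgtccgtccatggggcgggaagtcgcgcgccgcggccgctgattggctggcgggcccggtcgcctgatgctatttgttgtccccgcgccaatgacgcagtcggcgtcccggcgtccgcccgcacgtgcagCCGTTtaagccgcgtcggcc
The motif stood 4 times upstream of Piwil1, 2 times upstream of Tdrd5 and 1 time each upstream of Tdrd9 and Ddx4. Of all 32851 such windows, 74.2% held it, so that its presence does not set these genes apart. The mean over all windows was 1.46 sites. Upstream sequences were matched for 7 of the 10 members. The 3 listed starts of Tdrd7 held it 5, 2 and 3 times. Those of Tdrd1 held it 0, 1 and 2 times, and that of Mael 2 times.

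The levels below are normalized log2 intensities, and levels of different probes cannot be set against each other. Between 15997 and 19348 probes were above background on each array. Precision depends on how many arrays a group holds and on the spread of each probe, which was estimated over all 8 groups. The arrays of the 4 spermatid groups lay between 12.06 and 12.48 on a score of 14 round spermatid markers (mean log2). Spermatocyte arrays lay between 10.20 and 12.18, and wild-type replicate 1 of experiment 1 (12.18) fell within the range of spermatids. The next highest were tag replicates 1 (11.99) and 2 (11.75) of experiment 1 and kd-labelled replicate 1 (11.339) of experiment 2. Wild-type replicate 2 (11.336) and tag replicate 3 (11.328) of experiment 1 followed closely. No gap in the score therefore sets apart the 4 highest arrays, which some fits below leave out. The score of 11 spermatocyte markers lay between 9.24 and 9.84 in spermatocytes and between 8.66 and 9.30 in spermatids, and the cell types did not overlap on it within either experiment. Markers of other testis cells also moved with cell type. A score of 4 Leydig cell markers averaged 9.02 to 9.29 in the spermatocyte groups and 6.47 to 6.88 in the spermatid groups, where Star was above background on no array. A score of 5 macrophage and blood markers averaged 4.77 to 5.20 in spermatocytes, with C1qa above background on no array of 3 of the 4 groups, and 5.88 to 6.78 in spermatids. The part of these cells in the results below was not tested. The probe of H2bc1, the gene for TH2B, was above background on 5 of 5 arrays of kd-labelled spermatocytes (6.61 ± 0.50, SD, n = 5). In kd-labelled spermatids it was above background on 1 of 5 arrays. On no wild-type array was it above background (4.61 ± 0.13 in wild-type spermatocytes of experiment 2, SD, n = 5). That direction is not the one the label names. With no wild-type signal, however, the probe could not show a loss of this RNA and does not decide on the label. These mice are called kd-labelled throughout.

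Round spermatids against spermatocytes gave the main pattern among the members. In the wild types of experiment 1, 7 of the 9 measured genes were lower in spermatids (limma, adjusted p under 0.05 over 22605 probes), none was higher, and Ddx4 and Tdrd7 did not pass. The 7 were Piwil1, Tdrd5, Piwil2, Tdrd9, Tdrd1, Tdrd6 and Rnf17, by 12.5-fold at most and 1.46-fold at least. The background was large: 32% of all probes were lower and 26.7% higher in this comparison. The median over the 9 genes was -1.57 on the log2 scale, and over all 12260 genes it was -0.04. The tag mice gave 7 lower and 0 higher, against 30.2% and 28.7% of all probes. The wild types of experiment 2 gave 8 lower and 0 higher, against 33.5% and 25.9%, and the kd-labelled mice gave 8 lower and 0 higher, against 32.9% and 26%. The member medians there were -1.56, -1.93 and -1.83. In bulk RNA, fewer cells of a type and less RNA per cell cannot be told apart. Without the 4 spermatocyte arrays of highest spermatid score, the counts were again 7, 7, 8 and 8.

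**Figure D1:**
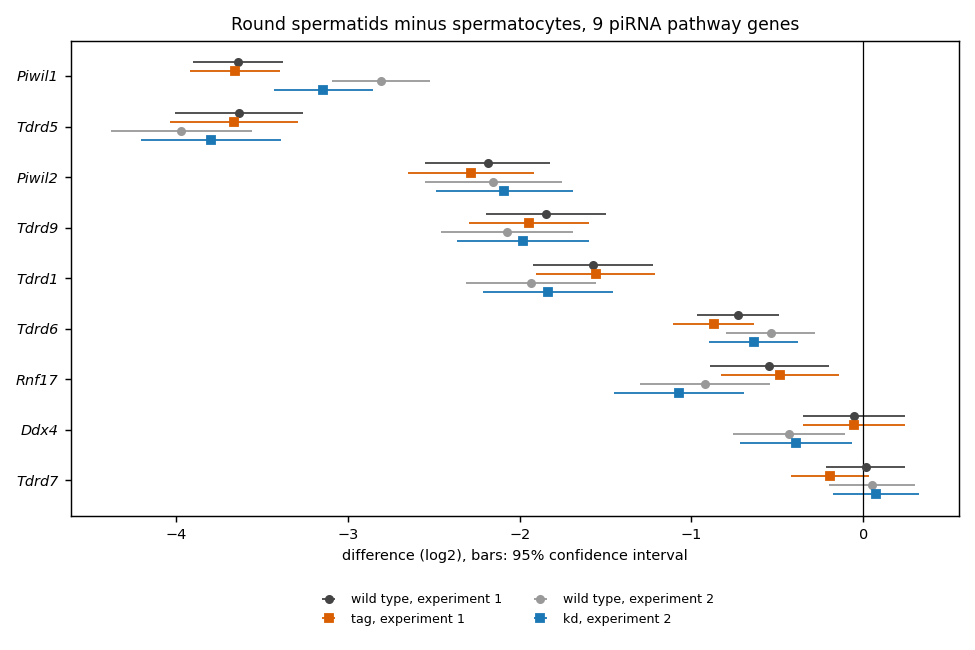
Difference in normalized log2 intensity between round spermatids and spermatocytes for the 9 measured genes, one point for each wild-type, tag or kd-labelled comparison, with 95% confidence intervals from the limma fit. Piwil1 and Tdrd5 lie lowest, between -2.81 and -3.97, and Tdrd7 lies on both sides of 0.

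Piwil1 (MIWI), the PIWI protein that binds pachytene piRNAs and is needed for spermiogenesis, was among the members with the largest difference. In wild-type spermatocytes of experiment 1 its 6 arrays lay between 13.49 and 13.99 with a median of 13.93, and in wild-type spermatids between 9.90 and 10.72 with a median of 10.17. The groups did not overlap, and the 12.5-fold lower level corresponded to -3.64 ± 0.13 (SE, adjusted p = 4.92e-25, limma). In experiment 2 the 5 wild-type spermatocyte arrays read 13.98, 14.06, 14.17, 14.12 and 13.87, and the 5 spermatid arrays read 11.36, 11.42, 11.21, 11.15 and 11.02. The difference there was -2.81 ± 0.14 (7.00-fold, adjusted p = 5.27e-20, limma). All 22 spermatocyte arrays lay above all 22 spermatid arrays of the 8 groups. Tag mice gave -3.66 and kd-labelled mice -3.14. The other Piwil1 probe moved the same way in every comparison, between -3.29 and -3.84.

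Piwil2 (MILI), a PIWI protein that cuts transposon RNA, was 4.55-fold lower in wild-type spermatids of experiment 1. Its spermatocyte arrays lay between 10.60 and 11.72 (median 11.49) and its spermatid arrays between 9.06 and 9.37 (median 9.19). The difference was -2.19 ± 0.18 (adjusted p = 1.20e-13, limma), and -2.15 ± 0.20 in the wild types of experiment 2. There the spermatocyte arrays read 11.07, 11.08, 11.62, 11.19 and 11.14 and the spermatid arrays 9.47, 9.08, 8.81, 8.96 and 9.02. The groups did not overlap in either experiment. Tag mice gave -2.28 (4.87-fold) and kd-labelled mice -2.09 (4.26-fold).

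Tdrd5, a Tudor protein that promotes piRNA production from pachytene precursors, was 12.4-fold lower in wild-type spermatids of experiment 1 and 15.7-fold lower in those of experiment 2. In wild-type mice of experiment 1 the spermatocyte arrays ran from 9.94 to 11.24 (median 11.01) and the spermatid arrays from 7.09 to 7.43 (median 7.29). The difference was -3.63 ± 0.18 (adjusted p = 4.40e-20, limma). The lowest spermatocyte array, 9.94, was replicate 1, the array with the highest spermatid score of its group. In experiment 2 the wild-type spermatocyte arrays read 10.85, 10.76, 10.97, 11.03 and 11.02, and the spermatid arrays read 7.17, 7.06, 6.48, 7.08 and 7.00. The difference was -3.97 ± 0.20 (adjusted p = 6.22e-20, limma), and the ranges did not overlap. Tag mice gave -3.67 (12.7-fold) and kd-labelled mice -3.80 (13.9-fold). Only 0.408% of all genes in experiment 1 and 0.506% in experiment 2 were lower by over 3 on the log2 scale in the wild types.

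Tdrd9, a Tudor domain helicase that silences transposons in the male germ line, was 3.59-fold lower in wild-type spermatids of experiment 1, with spermatocyte arrays between 9.30 and 9.98 and spermatid arrays between 7.31 and 8.16. The difference of -1.85 ± 0.17 (adjusted p = 3.96e-12, limma) was followed by -2.07 ± 0.19 in experiment 2, where the arrays read 9.98, 9.40, 10.10, 9.78 and 9.90 in spermatocytes and 8.03, 7.81, 7.51, 7.80 and 7.63 in spermatids. Tdrd1, the Tudor partner of MILI in the germ granules between mitochondria, was 2.98-fold lower in experiment 1 and 3.82-fold lower in experiment 2. Its wild-type differences were -1.57 ± 0.17 (adjusted p = 1.83e-10, limma) and -1.93 ± 0.19 (adjusted p = 8.83e-12, limma). In experiment 2 its spermatocyte arrays read 8.43, 8.74, 9.01, 8.89 and 8.67 and its spermatid arrays 6.68, 6.93, 6.84, 6.76 and 6.85. Both genes held separate ranges in the cell types within each experiment. In tag and kd-labelled mice the differences were -1.95 and -1.98 for Tdrd9 and -1.56 and -1.83 for Tdrd1. The other 2 probes of Tdrd1 were above background on no array.

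Tdrd6 and Tdrd7 are Tudor proteins known from the chromatoid body. Tdrd6, a scaffold of that granule, was 1.66-fold lower in wild-type spermatids of experiment 1 (-0.73 ± 0.12, adjusted p = 7.91e-07, limma) and 1.45-fold lower in experiment 2 (-0.54 ± 0.13, adjusted p = 3.45e-04, limma). Its arrays of experiment 1 ran from 13.46 to 14.10 in spermatocytes and from 12.71 to 13.39 in spermatids. In experiment 2 they read 13.93, 13.83, 13.92, 13.83 and 13.83 against 13.22, 13.55, 13.42, 13.21 and 13.25, again without overlap. Tag mice gave -0.87 and kd-labelled mice -0.64. Tdrd7 gave 0.01 ± 0.11 (95% interval -0.21 to 0.24, adjusted p = 0.924, limma) and 0.05 ± 0.12 (-0.20 to 0.30, adjusted p = 0.742, limma) in the wild types. Its 44 arrays all lay between 12.27 and 13.09, and the cell types overlapped in every comparison. Under cyclic loess normalization Tdrd7 passed as higher in spermatids of experiment 2, by 0.25 in the wild types (adjusted p = 0.0488, limma) and by 0.37 in the kd-labelled mice (adjusted p = 0.00444, limma).

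Ddx4 (MVH, the mouse vasa helicase of germ granules) was read by 2 probes that disagreed. The brighter one gave -0.05 ± 0.15 in wild-type and in tag mice of experiment 1 (adjusted p = 0.786 for both, limma), with overlapping arrays. In experiment 2 it gave -0.43 ± 0.16 in the wild types (adjusted p = 0.0201, limma) and -0.39 ± 0.16 in the kd-labelled mice (adjusted p = 0.0355, limma). The wild-type spermatocyte arrays read 10.14, 10.35, 10.30, 10.18 and 10.45 and the spermatid arrays 9.93, 9.90, 9.84, 9.81 and 9.76, which did not overlap. The dimmer probe gave 0.34 ± 0.25 and 0.19 ± 0.25 in the same comparisons (adjusted p = 0.248 and 0.542, limma). The wild-type call of Ddx4 was lost under cyclic loess (-0.27, adjusted p = 0.121), with the mean of its probes (-0.05) and without wild-type spermatocyte replicate 5 (adjusted p = 0.052), all by limma. The kd-labelled call was lost under cyclic loess (-0.23), with the mean of the probes (-0.10) and without the filter on dim probes (adjusted p = 0.0628, limma). It held in 5 of the 10 fits that left out 1 array, and failed without kd-labelled spermatocyte replicates 2 or 4 or kd-labelled spermatid replicates 3, 4 or 5. The third Ddx4 probe was above background on 1 of 44 arrays.

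Rnf17, a RING finger and Tudor protein that in the mouse restrains needless piRNA cutting in spermatocytes, was lower in spermatids of all 4 genotype groups. The wild-type differences were -0.55 ± 0.17 in experiment 1 (1.46-fold, adjusted p = 0.00543, limma) and -0.92 ± 0.19 in experiment 2 (1.89-fold, adjusted p = 3.78e-05, limma). The arrays overlapped in experiment 1, at 7.31 to 8.22 in spermatocytes and 6.89 to 7.73 in spermatids. In experiment 2 they read 7.92, 7.62, 7.83, 7.40 and 8.23 against 7.01, 6.88, 6.77, 6.81 and 6.92, with no overlap. Tag mice gave -0.48 ± 0.17 (adjusted p = 0.0132, limma), a call lost without tag spermatocyte replicate 6 (adjusted p = 0.0527, limma), and kd-labelled mice -1.07 ± 0.19. A dimmer Rnf17 probe was above background on no spermatid array of experiment 1, where spermatocytes were at least 1.08-fold higher in the wild types and at least 1.12-fold higher in tag mice, taking the dim group at the lowest signal above background of each array. In experiment 2 the dimmer probe gave -0.39 ± 0.19 in the wild types, which did not pass (adjusted p = 0.0856, limma). In the kd-labelled mice it gave -0.67 ± 0.19 (adjusted p = 0.00285, limma). It was above background on 3 of 5 wild-type and 1 of 5 kd-labelled spermatid arrays, and the cell types overlapped in both. The third Rnf17 probe was above background on no array.

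**Figure D2:**
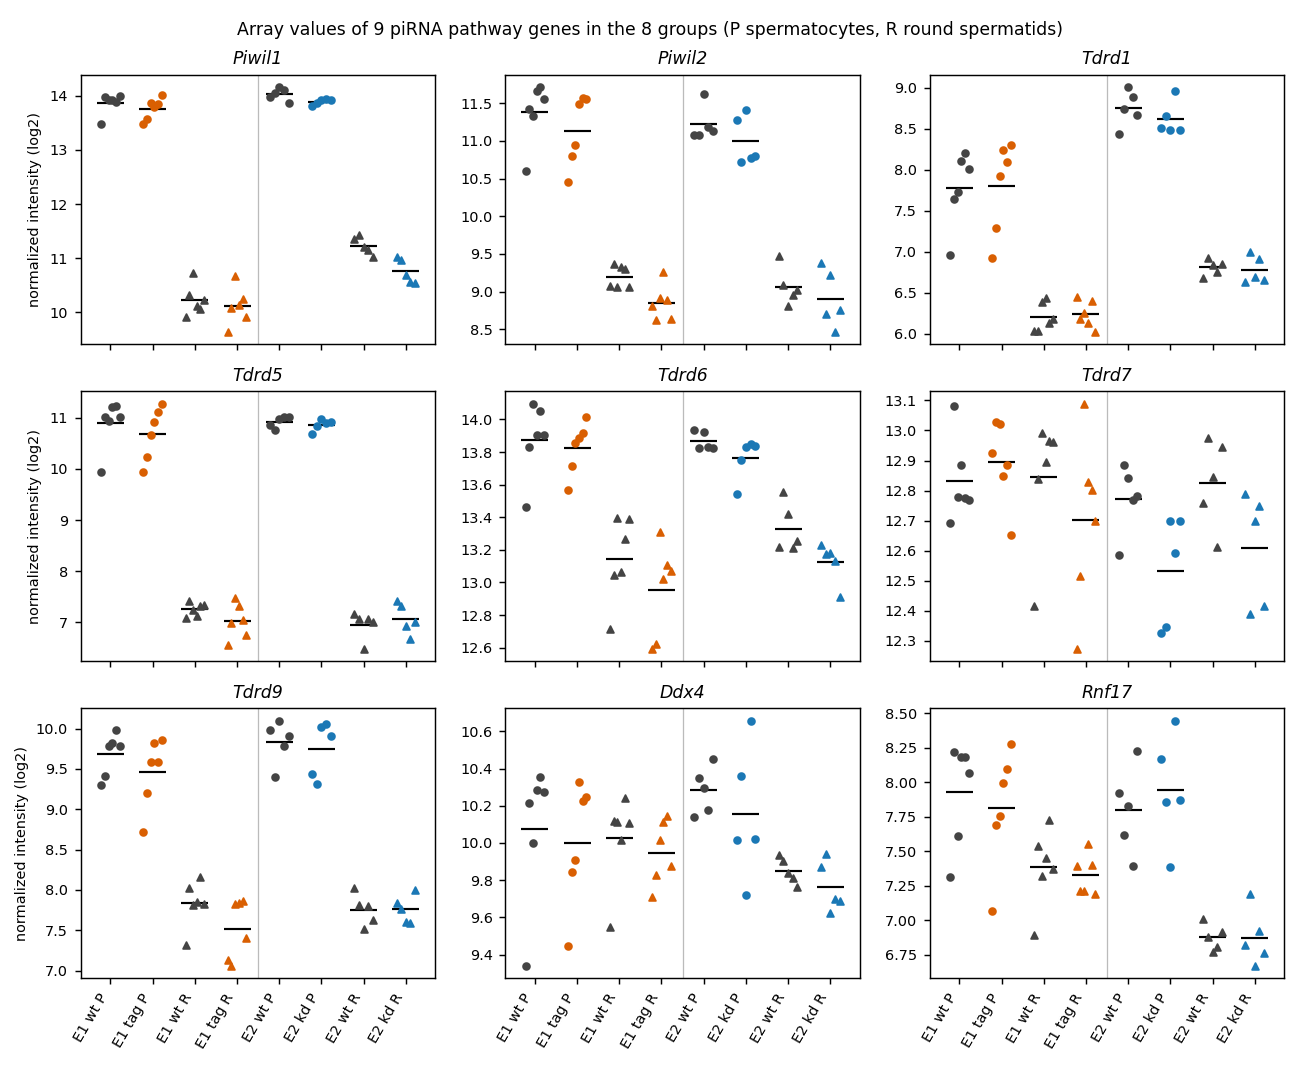
Normalized log2 intensity of the 9 measured genes on each of the 44 arrays, in panels by gene and columns by group, where E1 and E2 are the experiments, P spermatocytes, R round spermatids, wt wild type, and short bars the group means. Circles (spermatocytes) stand clear of triangles (spermatids) for Piwil1, Piwil2, Tdrd5 and Tdrd9, and are mixed with them for Tdrd7.

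The spermatocyte arrays varied together in several members along the spermatid score. In wild-type spermatocytes of experiment 1 replicate 1, at a score of 12.18, had the lowest Piwil1 (13.49), Piwil2 (10.60), Tdrd5 (9.94) and Ddx4 (9.34) of its group. In tag spermatocytes the lowest Tdrd5 was 9.94, at a score of 11.99, and the highest was 11.28, at a score of 10.43. For Tdrd5 the spread was smaller in the spermatocytes of experiment 2, with an SD of 0.12 in the wild types and 0.12 in the kd-labelled mice, against 0.48 and 0.52 in the 2 groups of experiment 1. This did not hold for every member. The SD of Ddx4 was 0.13 in the wild types and 0.36 in the kd-labelled mice, against 0.38 and 0.33 in experiment 1. Without the 4 arrays of high score, the wild-type stage differences of experiment 1 were -3.72 for Piwil1, -3.82 for Tdrd5 and -2.34 for Piwil2.

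**Figure D3:**
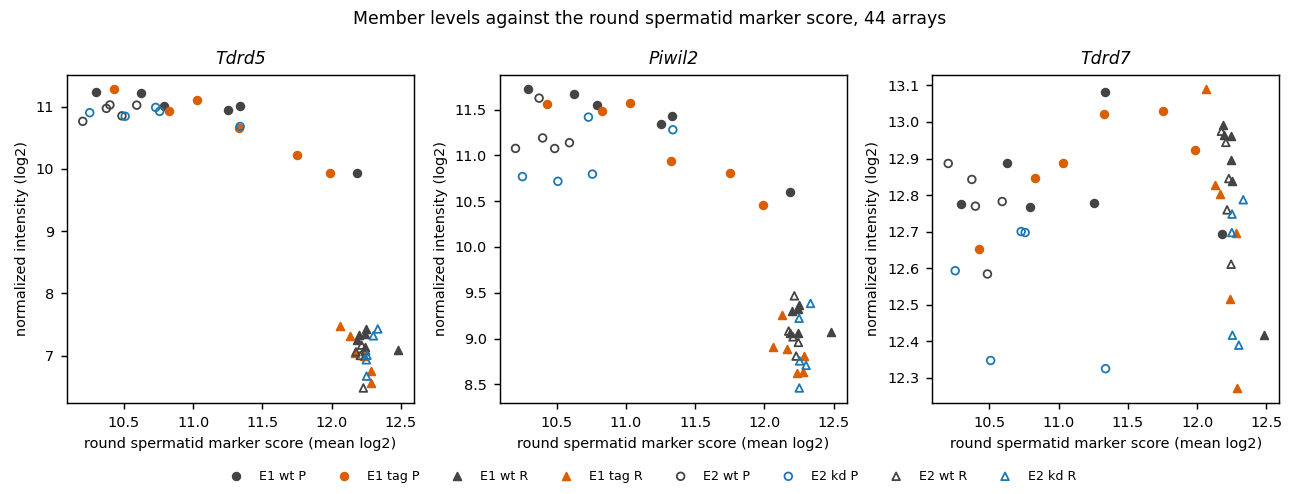
Normalized log2 intensity of Tdrd5, Piwil2 and Tdrd7 against the mean log2 of 14 round spermatid markers on the 44 arrays, with circles for spermatocytes, triangles for round spermatids, filled symbols for experiment 1 and open symbols for experiment 2. The spermatocyte arrays at scores of 11.75, 11.99 and 12.18 hold the lowest Tdrd5 and Piwil2 of the spermatocytes of experiment 1.

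Tag against wild type asked whether the fused TH2B altered these RNAs. In spermatocytes 0 of 9 genes passed (limma, lowest adjusted p = 0.64, 0 at an unadjusted p under 0.05), against 4.76% of all probes. In spermatids 0 of 9 passed as well (lowest adjusted p = 0.222, 0 at an unadjusted p under 0.05), against 15.5% of all probes. Member differences ran from -0.25 to 0.06 in spermatocytes and from -0.35 to 0.04 in spermatids. The largest was that of Piwil2 in spermatids, at -0.35 ± 0.18 (95% interval -0.71 to 0.02, adjusted p = 0.222, limma), where 9.20 ± 0.15 in wild type stood against 8.85 ± 0.23 in tag mice (SD, n = 6 each), with overlapping arrays. Tdrd9 in spermatids gave -0.31 ± 0.17 (adjusted p = 0.252, limma). Piwil1 gave -0.10 ± 0.13 in spermatocytes and -0.12 ± 0.13 in spermatids, with intervals of -0.36 to 0.16 and -0.38 to 0.15. The tag effect passed as different between the cell types for 0 of 9 genes (limma, lowest adjusted p = 0.819, 0 at an unadjusted p under 0.05), against 2.48% of all probes. The largest value was that of Tdrd7, at -0.21 (95% interval -0.53 to 0.12).

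Kd-labelled against wild type asked the same for mice said to lack TH2B. In spermatocytes 0 of 9 genes passed (limma, lowest adjusted p = 0.448, 0 at an unadjusted p under 0.05), and 1.5% of all probes did. The range of the differences was -0.24 to 0.15, with Tdrd7 at the low end (-0.24 ± 0.12, 95% interval -0.49 to 0.01). In these spermatocytes a score of 6 peritubular cell markers averaged 7.10 against 6.01 in wild type. The round spermatid score averaged 10.72 against 10.41, that of Sertoli cells 6.28 against 5.88 and that of spermatogonia 6.55 against 6.29. Leydig cell markers averaged 9.29 against 9.10, those of macrophages and blood 5.01 against 4.77, and spermatocyte markers 9.68 in both. The part of these cells was not tested. In spermatids 0 of 9 passed (limma, lowest adjusted p = 0.0825, 1 at an unadjusted p under 0.05), again against 1.5% of all probes. That 1 gene was Piwil1. Its wild-type spermatid arrays read 11.36, 11.42, 11.21, 11.15 and 11.02, and its kd-labelled arrays read 11.03, 10.96, 10.69, 10.57 and 10.53. The groups overlapped by 1 array on each side, since the highest kd-labelled array (11.03) stood just above the lowest wild-type array (11.02). The difference was -0.48 ± 0.14 (1.39-fold lower, 95% interval -0.77 to -0.19, adjusted p = 0.0825, limma), and the other Piwil1 probe gave -0.33 ± 0.15 (adjusted p = 0.448, limma). In these spermatids the mean marker scores of wild-type and kd-labelled mice were 5.88 and 6.24 for macrophages and blood (ranges 5.71 to 6.02 and 6.11 to 6.48). They were 5.32 and 5.66 for peritubular cells, and 6.47 and 6.73 for spermatogonia. The round spermatid scores were 12.21 and 12.28, with ranges of 12.176 to 12.246 and 12.251 to 12.333. Spermatocyte scores were 9.10 and 9.12, those of Leydig cells 6.58 and 6.69, and those of Sertoli cells 6.28 and 6.23. The part of all these cells in the Piwil1 value was not tested. Without the 4 spermatocyte arrays of high score, the Piwil1 value had an adjusted p of 0.0428 (limma). Those arrays belong to neither group of this comparison but enter the shared estimate of the spread. The Piwil1 value passed under some other settings and failed under others, and it passed in no fit that left out 1 array. The kd effect passed as different between the cell types for 0 of 9 genes (limma, lowest adjusted p = 1, 0 at an unadjusted p under 0.05), against 0.0487% of all probes. The largest value was that of Piwil1, at -0.34 (95% interval -0.74 to 0.07).

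**Figure D4:**
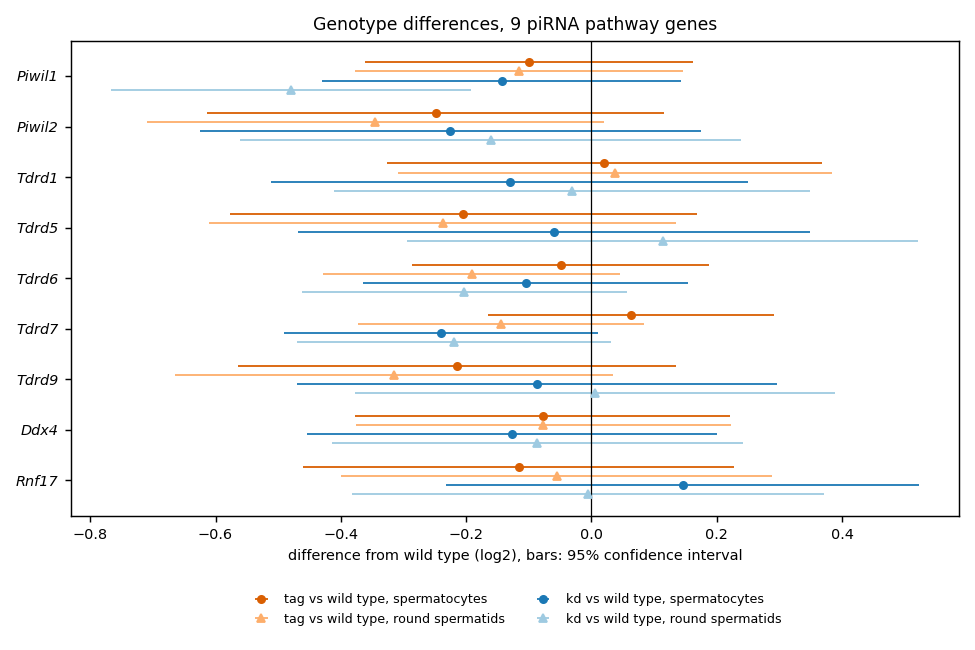
Differences of tag and kd-labelled mice from their wild types in normalized log2 intensity for the 9 measured genes, with 95% confidence intervals from the limma fit, circles for spermatocytes and triangles for round spermatids. Of all intervals shown, only that of Piwil1 in kd-labelled spermatids (-0.77 to -0.19) leaves out 0.

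The wild types of the 2 experiments were set against each other after the data had been seen, and experiment, arrays and mice cannot be told apart there. In spermatocytes 1 of 9 genes passed, against 25.1% of all probes. It was Tdrd1, 0.97 ± 0.18 higher in experiment 2 (adjusted p = 6.04e-05, limma), with 7.78 ± 0.45 (SD, n = 6) in experiment 1 and 8.75 ± 0.22 (SD, n = 5) in experiment 2. In spermatids 3 of 9 passed, against 27.5% of all probes. Piwil1 was 1.01 ± 0.14 higher in experiment 2 (adjusted p = 1.43e-07, limma), Tdrd1 was 0.61 ± 0.18 higher (adjusted p = 0.00831, limma) and Rnf17 was 0.51 ± 0.18 lower (log2 difference -0.51, adjusted p = 0.03, limma). The Rnf17 value passed in 7 of 11 fits that left out 1 array, and failed without wild-type spermatid replicates 2 or 5 of experiment 1 or 3 or 4 of experiment 2. It was also lost with the authors' values (-0.32, adjusted p = 0.0539), under median centring (-0.19, adjusted p = 0.586), without the filter on dim probes (adjusted p = 0.0571) and with the mean of the Rnf17 probes (-0.05, adjusted p = 0.862), all by limma. Tdrd1 in spermatids was lost with the authors' values (0.32, adjusted p = 0.0542, limma), and in spermatocytes it gave 0.49 with the spermatid score as covariate. The dimmer Ddx4 probe was 1.03 ± 0.24 higher in spermatocytes and 1.26 ± 0.24 higher in spermatids of experiment 2, while the brighter one gave 0.20 and -0.17. The stage difference itself differed between the experiments for 1 of 9 genes, against 1.8% of all probes. For Piwil1 it was smaller in experiment 2 by 0.83 ± 0.19 (adjusted p = 0.0109, limma), and the other Piwil1 probe gave 0.55 ± 0.21 (adjusted p = 0.201, limma). The call was lost under median centring (0.72, adjusted p = 0.0825, limma).

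A list of 36 other genes of the piRNA pathway and of the chromatoid body was read next, of which 27 were measured. Spermatids were lower for 18 and higher for 4 of them in the wild types of experiment 1, lower for 17 and higher for 3 in tag mice, and lower for 18 and higher for 3 both in the wild types of experiment 2 and in kd-labelled mice (limma). Over all probes, in the same order, 32%, 30.2%, 33.5% and 32.9% were lower and 26.7%, 28.7%, 25.9% and 26% higher. The list medians were -0.64, -0.46, -0.71 and -0.88. Pld6, the mitochondrial nuclease that cuts piRNA precursors, lay at 9.04 ± 0.56 in spermatocytes and 6.76 ± 0.52 in spermatids of experiment 1 (SD, n = 6 each, wild type). Its wild-type differences were -2.28 ± 0.24 (adjusted p = 7.67e-11, limma) and -2.62 ± 0.26 (adjusted p = 1.90e-11, limma). Gpat2, a mitochondrial partner of MILI, gave -1.98 ± 0.13 in the wild types of experiment 1, and Prmt5, the enzyme that methylates arginines of PIWI proteins, gave -1.92 ± 0.14. Ago2, the slicer Argonaute of the microRNA and small interfering RNA pathways, gave -1.92 ± 0.13. In tag mice it gave -2.31 ± 0.13, where its probe was above background on 2 of 6 spermatid arrays. Mov10l1, the helicase that binds piRNA precursors, gave -1.65 ± 0.15 for spermatids against spermatocytes of tag mice. Stk31, a Tudor domain kinase, gave -1.99 ± 0.25 in the wild types of experiment 2, with 4 of 5 spermatid arrays above background.

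The genes that were higher in spermatids were few. Kif17, a kinesin found in the chromatoid body, rose by 2.04 ± 0.23 in the wild types of experiment 1 (adjusted p = 4.60e-10, limma) and by 2.41 ± 0.25 in those of experiment 2 (adjusted p = 5.76e-11, limma). Dnmt3l, the cofactor of de novo DNA methylation, gave 1.90 ± 0.24 and 2.29 ± 0.27. Gtsf1, a zinc finger partner of PIWI proteins, gave 0.95 ± 0.13 and 1.07 ± 0.14, and Mov10 passed in the wild types of experiment 1 (0.27 ± 0.12, adjusted p = 0.0422, limma). These 2 genes were named after their values were seen. Mov10 was above background on 2 of 6 spermatid and 1 of 6 spermatocyte arrays there, with overlapping groups, and its stage difference did not pass as different between the wild types of the experiments (-0.51 ± 0.17, adjusted p = 0.135, limma).

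**Figure D5:**
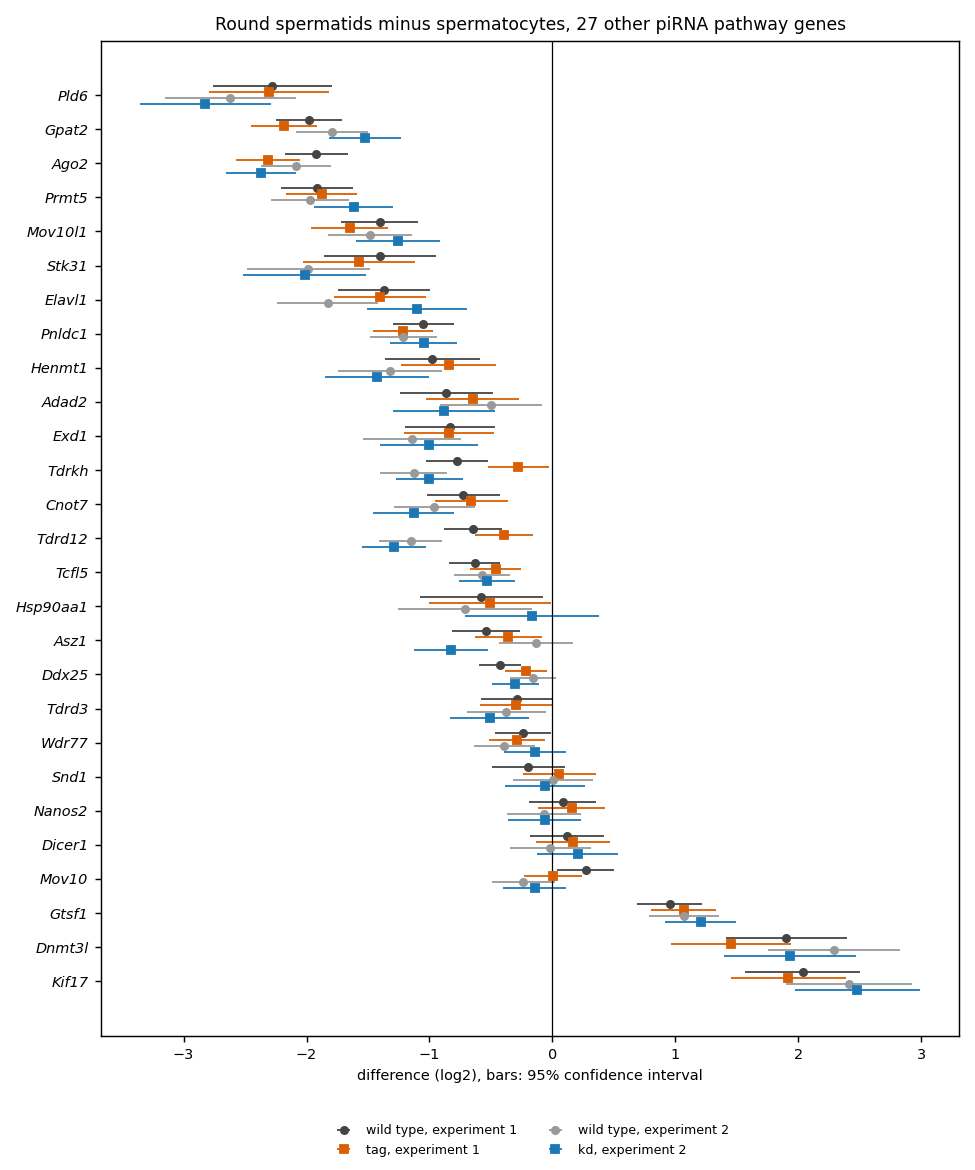
Difference in normalized log2 intensity between round spermatids and spermatocytes for 27 other piRNA pathway and chromatoid body genes, ordered by the wild types of experiment 1, with 95% confidence intervals from the limma fit. Most lie below 0, Pld6 lowest at -2.28 in the wild types of experiment 1, and Kif17, Dnmt3l and Gtsf1 lie above 0 in all 4 comparisons.

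Between genotypes, 0 of the 27 passed in spermatocytes with the tag (limma, 0 at an unadjusted p under 0.05), against 4.76% of all probes. In kd-labelled spermatocytes 0 passed (limma, 3 at an unadjusted p under 0.05), against 1.5%. In tag spermatids 5 of 27 passed, against 15.5% of all probes, and with the replicate number as a block, where the numbers pair the samples, 3 passed. The block ended the calls of Gtsf1 (adjusted p = 0.056), Pnldc1 (adjusted p = 0.0657) and Ago2 (adjusted p = 0.0591) by limma and kept those of Tdrkh and Gpat2, and Asz1 passed in that fit (0.34, adjusted p = 0.0408, limma). Tdrkh, the Tudor protein that holds PIWI proteins at mitochondria, rose by 0.56 ± 0.12 (9.17 ± 0.19 to 9.73 ± 0.09, SD, n = 6 each, adjusted p = 7.40e-04, limma). Under the mean of its probes Tdrkh gave 0.28 (adjusted p = 0.135, limma). Gpat2 was lower by 0.46 ± 0.13 (log2 difference -0.46, adjusted p = 0.0115, limma) and passed in all 12 fits that left out 1 array. Gtsf1 (0.37, adjusted p = 0.0426), Pnldc1, the nuclease that trims piRNA ends (-0.36, adjusted p = 0.0406), and Ago2 (-0.36, adjusted p = 0.0477) stood near the threshold (limma). They passed in 3, 4 and 4 of the 12 fits that left out 1 array, and each failed without tag spermatid replicate 2, 3, 5 or 6. Gtsf1 also failed without tag spermatid replicate 4 or wild-type spermatid replicate 1, 2, 3 or 4, Pnldc1 without wild-type spermatid replicate 2, 3, 4 or 5, and Ago2 without wild-type spermatid replicate 1, 2, 5 or 6. In tag spermatids Ago2 was above background on 2 of 6 arrays and Pnldc1 on 1 of 6. In kd-labelled spermatids 1 of 27 passed, against 1.5% of all probes. This was Asz1, a mitochondrial germ granule protein, at -0.58 ± 0.15 (9.37 ± 0.17 to 8.79 ± 0.18, SD, n = 5 each, adjusted p = 0.0308, limma). It passed in 3 of the 10 fits that left out 1 array and failed without wild-type spermatid replicates 1, 3, 4 or 5 or kd-labelled spermatid replicates 1, 4 or 5. No gene of the list passed as different in its tag or kd effect between the cell types (limma, lowest adjusted p = 0.173 and 0.642, 2 and 2 at an unadjusted p under 0.05).

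The genes outside the members with the most similar pattern were named by Pearson's r over the 44 arrays. These arrays fell into 2 clusters by cell type, and the values describe both clusters at once. Piwil1 was closest to Mib2 and Irf3 (r = 0.99 for both), and Tdrd5 to Rassf1 and Armt1 (0.99 for both). Tdrd9 was closest to Eif4h and Armt1, Piwil2 to Cyb5b and D030056L22Rik (0.98 for all 4), and Tdrd1 to Ino80c (0.98) and Pggt1b (0.97). Tdrd6 was closest to Lmtk2 (0.97) and Rhobtb1 (0.96), and Rnf17 to Ddx1 (0.96) and Qrich1 (0.93). The 2 members with little difference between the cell types had the least similar neighbours, Ddx4 with Rexo5 (0.86) and Ttc30a2 (0.84), and Tdrd7 with Cdk19 (0.80) and Dcaf7 (0.74).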

How the data were processed

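Total RNA of 44 samples was hybridized to single-channel Illumina arrays. The authors deposited raw intensities, the mean bead signal per probe and array per the file headers, with a detection p-value per probe in steps of 1 in 936. Their processed table holds an intensity per probe with nearly equal array medians (104.27 to 104.36). The medians alone do not show which normalization was used or whether background was subtracted. Software for both deposited tables was not given in the sources used here. Raw array medians ran from 91.4 to 119.

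The raw intensities were read into R 4.3.3 and treated with limma 3.58.1 as follows: normexp background from detection p-values, offset 16, quantile normalization and log2 (neqc). Probes with a detection p-value under 0.05 on at least 5 arrays were kept (22605). A gene was read by its brightest kept probe, gene names came from the platform annotation with current symbols (34885 probes with 1 gene, 18 with several, which were not named), and other probes are reported beside it. All arrays entered 1 linear model of 8 groups (lmFit, eBayes), and two-sided p-values were adjusted by Benjamini-Hochberg over 22605 probes at 0.05. Values after ± are standard errors unless given as SD, and the fit was tested on simulated data. Replicates are the samples the labels call biological replicates. Same-numbered samples deviated together in every pair (r over 0.1) in 4 of 8 comparisons: tag against wild type in both cell types (0.23 to 0.86 and 0.16 to 0.42) and the stage comparison of both wild types (0.13 to 0.57 and 0.19 to 0.35). The pairing there comes from the replicate numbers of the sample titles.

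The members, the 36 other pathway genes and the marker lists were chosen with earlier results of these data known. Named genes were all members, up to 6 other pathway genes per comparison with the largest difference past the threshold, the 2 genes most like each member, and H2bc1. Comparisons between the experiments were added after the data were seen. Upstream sequences came from RefSeq (GRCm38.p6), with 7 of 10 members matched.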

Additional observations from a re-analysis of the deposited data

Results flagged for a closer look

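Of 72 groups of 5 or 6 arrays (9 genes in 8 groups), 8 held an array far from the others of its group by Dixon's ratio at its 95% critical value, where chance flags about 1 in 20 groups. Of these, 4 were wild-type spermatocyte replicate 1 of experiment 1, the array with a spermatid marker score of 12.18. It read 13.49 for Piwil1 (others 13.88 to 13.99), 10.60 for Piwil2 (others 11.34 to 11.72), 9.94 for Tdrd5 (others 10.95 to 11.24) and 9.34 for Ddx4 (others up to 10.35). Wild-type spermatid replicate 1 of experiment 1 read 12.42 for Tdrd7 (others 12.84 to 12.99) and 9.55 for Ddx4 (others 10.02 to 10.24). In experiment 2 wild-type spermatocyte replicate 3 read 11.62 for Piwil2 (others 11.07 to 11.19), and wild-type spermatid replicate 3 read 6.48 for Tdrd5 (others 7.00 to 7.17).

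The wild-type stage difference of Piwil1 was smaller in experiment 2 by 0.83 ± 0.19 on the log2 scale (adjusted p = 0.0109, limma), by a test of the difference itself. It did not pass under median centring (0.72, adjusted p = 0.0825, limma) or for the other Piwil1 probe (0.55, adjusted p = 0.201, limma).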

How the results depend on the processing

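Over the 10 planned comparisons and the 9 members, 1032 of 1044 values under other settings kept their side of the threshold, 5 lost the call, 7 gained it and 0 reversed. With 1 array left out, 1180 of 1188 kept their side, 7 lost the call and 1 gained it (Tdrd7 in tag mice, stage, without tag spermatid replicate 3, adjusted p = 0.0375, limma). A value was called reversed only where its sign changed and it passed in the main or the other fit. Changes of sign among values that passed in neither fit were not counted. Members called with 1 array left out numbered 7 (wild type, experiment 1), 6 to 8 (tag), 7 to 8 (wild type, experiment 2) and 7 to 8 (kd-labelled) for stage, and 0 for all 4 genotype comparisons and both differences of effects.

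In kd-labelled spermatids the count of 0 became 1, Piwil1 each time (limma), under median centring (-0.63, adjusted p = 0.037), array weights by group (adjusted p = 0.0169), the round spermatid score as covariate (-0.46, adjusted p = 0.0321), without the 4 spermatocyte arrays nearest to spermatids (adjusted p = 0.0428) and with the replicate block (adjusted p = 0.013); adjusted p ran from 0.013 to 0.165 over 12 settings and from 0.054 to 0.25 with 1 array left out, and the cause was not tested. In that comparison 1 of 5 same-numbered pairs correlated over 0.1 and 1 of 5 samples correlated best with its own number. A pairing of these groups by number was therefore not shown. The block was fitted over all arrays of experiment 2. There, same-numbered spermatids and spermatocytes correlated over 0.1 in 5 of 5 wild-type and 4 of 5 kd-labelled pairs. The block changed no other count of members called. For the tag in spermatids, where the numbers pair, it took the other pathway genes called from 5 to 3. That count was 2 under median centring, cyclic loess and no filter on dim probes, 9 with the score as covariate and 2 to 6 with 1 array left out.

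Between experiments, the wild-type stage difference of Piwil1 lost its call under median centring (0.72, adjusted p = 0.0825, 0 of 9 called) and the spermatid count of 3 became 1 with the authors' values. The spermatocyte count of 1 became 3 under median centring, 2 with the mean of a gene's probes and 4 with the score as covariate. With 1 array left out these counts were 1, 2 to 3 and 1. Reversed values there were 0.41 for Tdrd6 and 0.35 for Ddx25 in spermatocytes under median centring, 0.54 for Ddx4 in spermatids with the mean of its probes, and -0.41 for Tdrd5 in spermatocytes with the score as covariate; the cause was not tested. Median centring put the median of all probes at -0.11 to -0.16 in the stage comparisons and at 0.12 and 0.13 between the experiments.

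Counts over all probes moved by over 1.5 times for the tag in spermatocytes (1077, with 296 when only its groups were fitted and 1827 with the score), the tag in spermatids (3498, 5407 with the score), kd-labelled spermatocytes (340, with 177 to 906) and kd-labelled spermatids (340, up to 721). They also moved for the tag effect between cell types (560, with 228 to 332), the kd effect (11, with 2 to 19) and the stage difference between experiments (408, 207 with the stricter filter). Fits of 1 value per gene tested fewer features and called fewer. A slide block was not run because the headers give no slides.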
